A study of Mus musculus with 6 samples.

Results

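The genes described here are 36 core components of the apoptosis machinery, taken by symbol from a list chosen with earlier results of these data known. They are members of the BCL2 family, caspases, inhibitor of apoptosis proteins, the proteins released from mitochondria and the adaptors of death receptors. They were read from a deposited table of 31456 rows, in which they held 37 rows, since DIABLO appears under a pair of identifiers. The libraries came from HCT116, a long-established line of human colorectal cancer cells, with 3 from its parental form and 3 from a form labelled resistant, which the study's title and design text connect with oxaliplatin, a platinum drug that forms DNA adducts. The labels name no dose, no treatment at harvest and no derivation of the resistant form, and do not say whether it is a clone or a pool, so the p-values below measure the spread between these libraries, which may be technical. The study set out to find genes that confer resistance to oxaliplatin, and the single comparison its labels allow is resistant against parental.

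As background, apoptosis in epithelial cells runs along a mitochondrial and a death receptor route. In the mitochondrial route BH3-only proteins sense damage and bind the anti-apoptotic BCL2 proteins, which otherwise hold the pore-forming effectors in check; open pores release cytochrome c, which assembles APAF1 and CASP9 into the apoptosome. In the death receptor route FADD recruits CASP8 and CASP10, CFLAR restrains them, and the BIRC proteins act as ubiquitin ligases or as direct caspase inhibitors. Platinum drugs are known to engage the mitochondrial route through DNA damage signalling.

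Total counts ran from 20246878 to 32138423 per library, so that the floor of 3 counts lay between 0.0933 and 0.148 CPM (counts scaled to library size; floors cover counting error only). The first principal component separated the groups and held 71.1% of the variance of log2 CPM, while parental replicate 2 stood apart from the other parental libraries on the second, which held 10.8%. The 10 epithelial markers, of which 7 passed the filter on low counts, summed to between 2578 and 3156 CPM per library, but VIL1, CDX1 and LGALS4, markers of differentiated colonic epithelium, were near 0. The 4 fibroblast markers summed to at most 0.41 CPM and the 4 leukocyte markers to at most 0.32 CPM in any library. Of 3 endothelial markers 2 had a row, and they summed to between 0.68 and 1.16 CPM per library. Nearly all of this was VWF, which passed the filter with 15 to 34 counts per library. In such bulk libraries fewer cells of a kind and less RNA per cell cannot be told apart.

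The apoptosis genes split into a small group with rises of at least 1.5-fold and a larger group with smaller shifts in either direction. Of the 36 genes 34 passed the filter on low counts and were tested with edgeR's quasi-likelihood test across all genes. At an adjusted p under 0.05, 21 of the 34 passed, beside 53.8% of all 16605 tested genes. Of the 21 genes 11 rose and 10 fell, and the background shares were 27.3% higher and 26.5% lower. Over all 34 tested apoptosis genes the median log2 fold change was -0.01, against 0.02 for all tested genes. The median absolute change of the 34 was 0.23 against 0.27. The median parental level of the tested apoptosis genes was 36.7 CPM, above the 20.5 CPM of all tested genes. With a fold of at least 1.5 asked for as well, 7 genes were higher and none lower; the background shares were 18.5% in either direction, 11.7% higher and 6.74% lower. Those 7 were BIRC3, CASP4, APAF1, BMF, BCL2L11, HRK and CASP10, and none of the pore-guarding anti-apoptotic genes was among them. Only 4 of the 7 passed the threshold in all 16 alternatives given below, and BMF, HRK and CASP10 did not. In 22 of the 34 genes (64.7%) the groups did not overlap, beside 61.2% of all tested genes, so this share lay near the background.

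**Figure D1:**
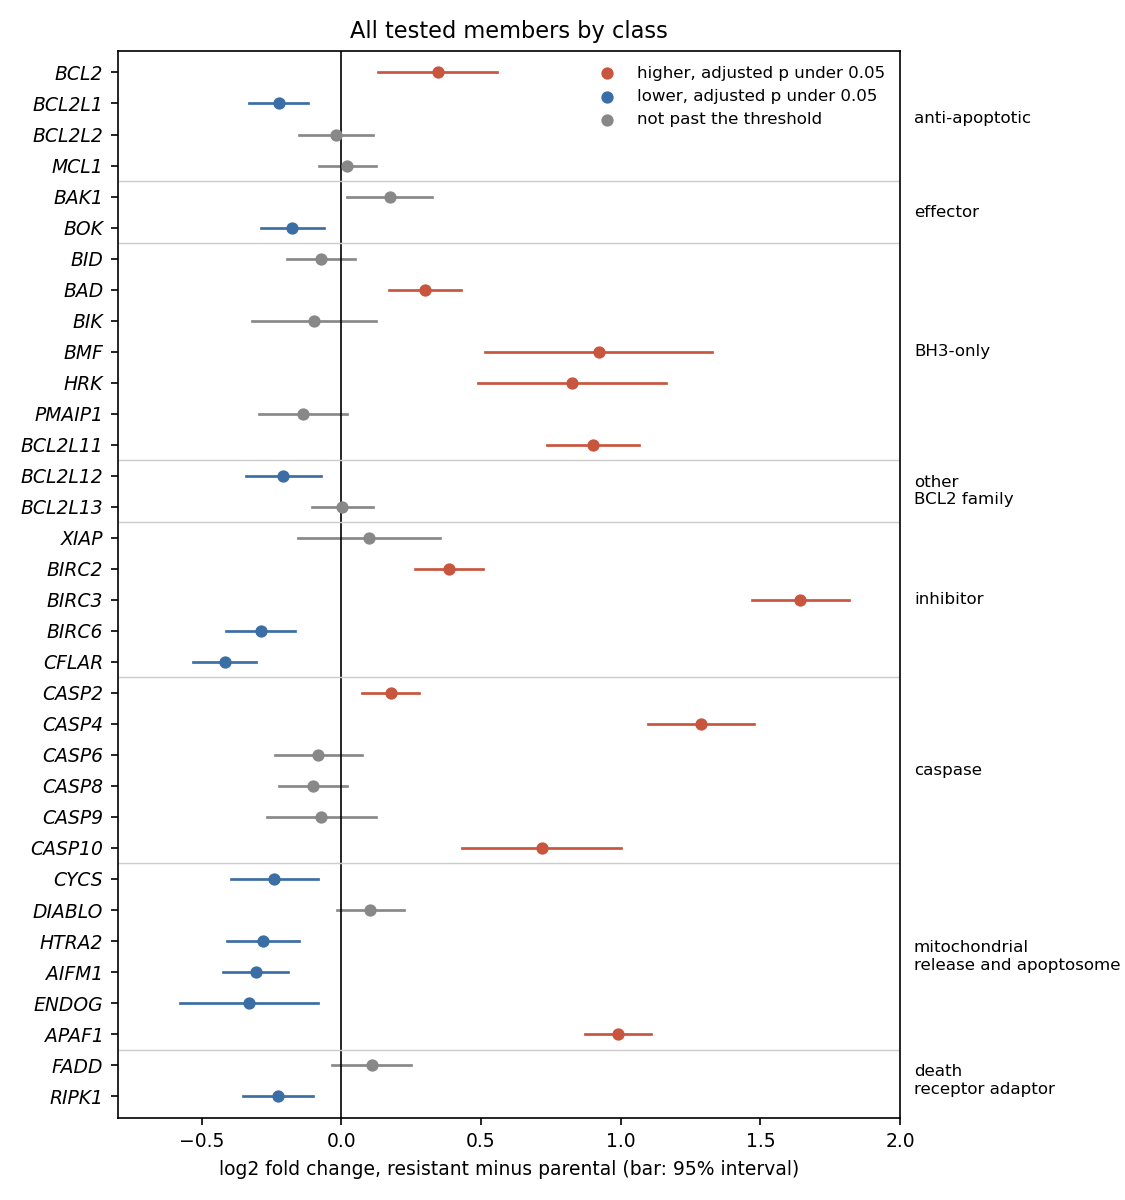
The log2 fold change (resistant minus parental) of the 34 tested genes, ordered by class, with its 95% interval from edgeR's fit. The 7 rises of at least 1.5-fold lie to the right, led by BIRC3 at 1.64 and CASP4 at 1.29, and the largest fall is that of CFLAR at -0.42.

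**Figure D2:**
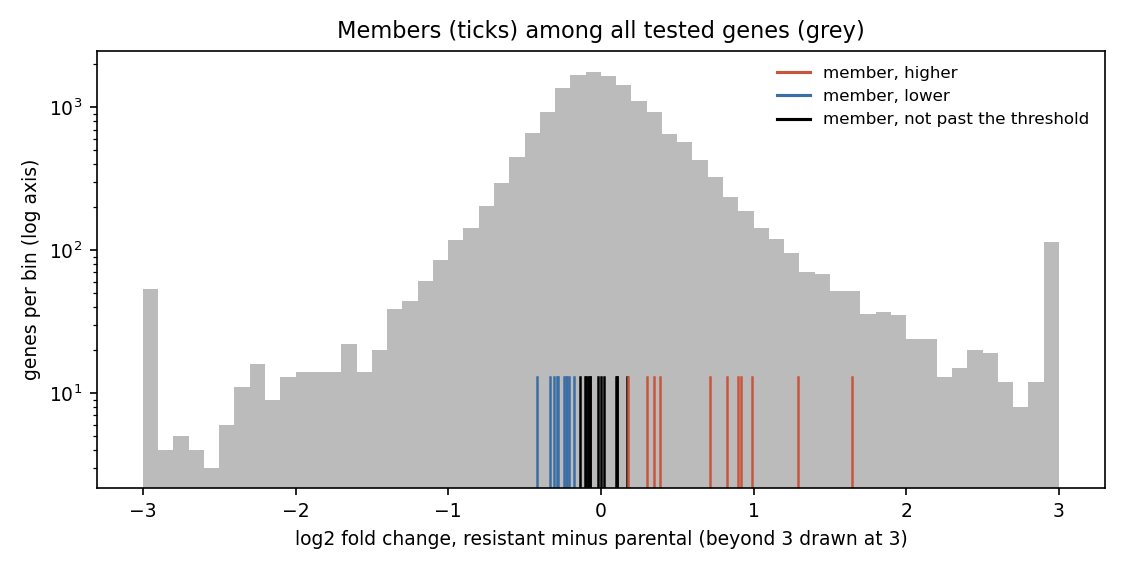
The grey histogram gives the number of tested genes (log axis) in each bin of log2 fold change, and the ticks mark the 34 tested apoptosis genes. All 10 genes called lower lie between -0.42 and -0.18, while the rises reach 1.64.

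The anti-apoptotic BCL2 genes kept their order of levels, and none moved by as much as 1.5-fold. BCL2L1, which encodes BCL-XL, stood at 299.5, 321 and 299 CPM in parental replicates 1, 2 and 3 and at 272, 265 and 250 CPM in the resistant replicates. Each resistant library lay below each parental library, and BCL2L1 fell 1.17-fold (log2 fold change -0.22 ± 0.05 SE, edgeR adjusted p = 0.0021). MCL1, a short-lived guardian that binds BAK1 and several BH3-only proteins, read 241, 226 and 242 CPM against 242, 230 and 246 CPM. The MCL1 groups overlapped, and the 95% interval of its log2 fold change ran from -0.08 to 0.12 (edgeR adjusted p = 0.73).

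BCL2L2, the gene of BCL-w, read 60.9, 52.4 and 59.8 CPM in the parental and 57.5, 56.9 and 56.0 CPM in the resistant libraries. These groups overlapped as well, with a 95% interval of -0.15 to 0.11 on the log2 scale; the readthrough gene BCL2L2-PABPN1 has a row of its own with 94 to 450 counts, and the division of reads between the rows is uncertain. BCL2, the founding member of the family, was expressed at a low level of 8.49, 6.99 and 7.89 CPM in the parental and 10.2, 10.02 and 9.40 CPM in the resistant libraries. Its groups did not overlap, and BCL2 rose 1.27-fold (log2 fold change 0.35 ± 0.10 SE, edgeR adjusted p = 0.010), a call lost on the authors' second table, described next (limma on log2(FPKM + 1), adjusted p = 0.062). BCL2A1, a family member best known from blood cells, had 0, 0 and 1 counts in the parental and 0, 0 and 1 in the resistant libraries, below the floor in each, and was not tested.

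Levels of different genes were compared per length, on the authors' second table, whose values were taken as FPKM (fragments per kilobase of gene, scaled to library depth). The ratio of FPKM to CPM by library size was not constant over libraries: the highest ratio was a median of 1.10 times the lowest in the 31 apoptosis genes with at least 100 counts in every library, and at most 1.41 times (XIAP). BCL2L1 was the most abundant anti-apoptotic gene, at 173 to 183 FPKM in the parental and 152 to 164 FPKM in the resistant libraries. MCL1 followed at 67.0 to 75.2 FPKM over all 6 libraries, then BCL2L2 at 16.1 to 22.1 FPKM and BCL2 at 1.07 to 1.80 FPKM. The ranges of these 4 genes did not touch. BCL2L1 made up 65.0% to 68.5% of the summed FPKM of the class in the parental and 61.2% to 63.7% in the resistant libraries, as a description with no test.

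The effectors moved little, with BOK called lower in the edgeR fit and BAK1 not past the threshold. BAK1, which forms pores in the outer mitochondrial membrane, read 24.5, 28.4 and 24.6 CPM in the parental and 29.7, 30.0 and 27.9 CPM in the resistant libraries. Parental replicate 2 reached into the resistant range, and the log2 fold change of 0.17 (95% interval 0.02 to 0.33) did not pass the threshold (edgeR adjusted p = 0.055). Without parental replicate 2 the BAK1 log2 fold change was 0.25 with an edgeR adjusted p of 0.0020, and with library sizes alone BAK1 was called higher (adjusted p = 0.0058), as it was with limma on FPKM where low values were filtered (adjusted p = 0.032). BOK, a relative of the effectors found largely at the endoplasmic reticulum, read 38.4, 39.9 and 38.9 CPM against 35.2, 33.9 and 34.7 CPM. The BOK groups did not overlap, and BOK fell 1.13-fold (edgeR adjusted p = 0.013), a call lost with library sizes alone (adjusted p = 0.20) and on FPKM. BAX, the partner effector of BAK1, is outside the list of 36 and is given below.

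Of the 7 BH3-only genes 4 rose, 3 of them by at least 1.5-fold, and none fell. Of all tested genes 27.3% were called higher, 11.7% were higher by at least 1.5-fold and 26.5% were called lower. Other BH3 proteins are outside these 7 and are counted below. BCL2L11 encodes BIM, which can bind every anti-apoptotic BCL2 protein. Its level was 24.7, 21.1 and 25.9 CPM in the parental and 44.3, 42.3 and 46.6 CPM in the resistant libraries. Every resistant library exceeded every parental one by a wide margin, and BCL2L11 rose 1.87-fold (log2 fold change 0.90 ± 0.08 SE, edgeR adjusted p = 1.4e-06). BMF, a BH3-only protein tied to the cytoskeleton, was scarce, with 1.503, 1.56 and 1.22 CPM in the parental and 2.73, 3.18 and 2.27 CPM in the resistant libraries. Behind these BMF levels were 40, 48 and 24 parental and 68, 93 and 59 resistant counts, the groups did not overlap, and the rise was 1.89-fold (log2 fold change 0.92 ± 0.19 SE, edgeR adjusted p = 0.0013).

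HRK, the gene of harakiri, which binds BCL-XL, was likewise scarce, at 2.74, 2.44 and 2.24 CPM against 3.82, 4.28 and 5.13 CPM. The HRK rise of 1.77-fold (log2 fold change 0.83 ± 0.15 SE, edgeR adjusted p = 7.5e-04) kept the groups apart in the same way. On FPKM the calls of BMF and HRK were lost, with limma adjusted p of 0.11 and 0.088. BAD, a BH3-only protein controlled by survival kinases through phosphorylation, rose by a smaller 1.23-fold, from 19.6 ± 0.477 CPM to 24.1 ± 0.854 CPM (SD, n = 3; edgeR adjusted p = 0.0011). BID, BIK and PMAIP1 did not pass the threshold. BID, which CASP8 cleaves to link the receptor and mitochondrial routes, had a 95% interval of -0.19 to 0.05 on the log2 scale, but on FPKM it was called lower (log2 fold change -0.15, limma adjusted p = 0.038). PMAIP1, which encodes the p53-induced protein NOXA, had 101 ± 7.84 CPM and 92.1 ± 7.60 CPM (SD, n = 3; edgeR adjusted p = 0.13). Without parental replicate 2 the log2 fold change of PMAIP1 was -0.20, with an edgeR adjusted p of 0.017.

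Per length the BH3-only genes spanned a wide range of levels. PMAIP1 was highest at 56.9 to 66.6 FPKM over the 6 libraries, and BMF and HRK were lowest, at 0.28 to 0.87 FPKM and 0.40 to 1.03 FPKM. In the parental libraries BID at 39.0 to 41.4 FPKM lay above BAD at 33.5 to 37.2 FPKM, and in the resistant libraries BAD at 42.5 to 44.9 FPKM lay above BID at 35.5 to 37.4 FPKM. BCL2L11 lay between 5.42 and 6.44 FPKM in the parental libraries, below BIK at 9.62 to 11.04 FPKM. In the resistant libraries BCL2L11 lay between 9.61 and 11.4 FPKM and overlapped BIK at 9.87 to 10.6 FPKM. The 3 BH3-only genes that rose by at least 1.5-fold were the 3 with the lowest parental FPKM of the 7.

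**Figure D3:**
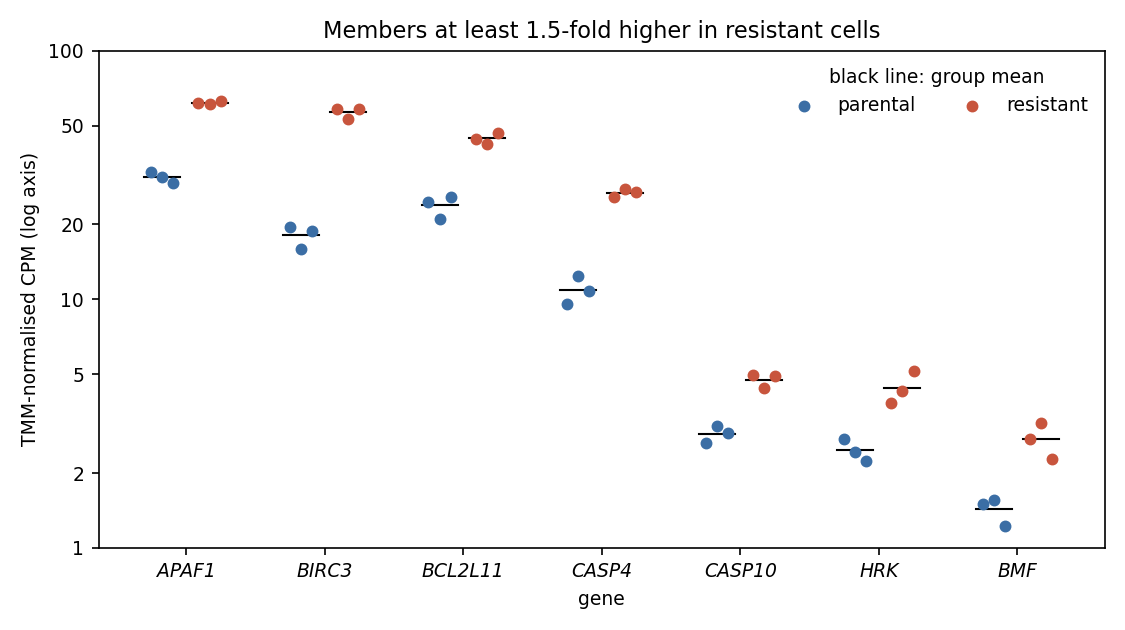
TMM-normalised CPM (log axis) of the 7 genes with rises of at least 1.5-fold, 1 point per library and a black line at each group's mean. In each gene the 3 resistant libraries lie above the 3 parental ones, from BMF near the bottom of the range to APAF1 at 61.0 to 62.5 CPM.

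BCL2L12 and BCL2L13, relatives of the family with less settled roles in cell death, showed small or no shifts. BCL2L12 fell 1.15-fold, from 47.3 ± 2.39 CPM to 41.0 ± 2.34 CPM (SD, n = 3; edgeR adjusted p = 0.013), and its adjusted p was 0.069 without resistant replicate 3, 0.13 with library sizes alone and 0.21 with limma on FPKM. BCL2L13, a mitochondrial outer membrane protein, had 60.4 ± 2.58 CPM and 60.5 ± 0.652 CPM (SD, n = 3; edgeR adjusted p = 0.97).

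The inhibitors of caspases and of death receptor signalling moved apart, with 2 genes higher, 2 lower and 1 not past the threshold among 5 tested. The shares over all tested genes were 27.3% higher and 26.5% lower. BIRC3 encodes cIAP2, a ubiquitin ligase of the TNF receptor complex and a well known NF-kB target. It stood at 19.6, 15.9 and 18.9 CPM in the parental and at 58.2, 52.9 and 58.2 CPM in the resistant libraries. The lowest resistant library was far above the highest parental one, and the 3.12-fold rise was the largest of the 34 genes (log2 fold change 1.64 ± 0.08 SE, edgeR adjusted p = 1.1e-08). BIRC2, which encodes its close relative cIAP1 and neighbours BIRC3 in the human genome, rose by 1.30-fold from 67.1 ± 3.45 CPM to 87.5 ± 4.33 CPM (SD, n = 3; edgeR adjusted p = 1.2e-04).

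CFLAR, the gene of FLIP, which blocks CASP8 at death receptors, fell 1.34-fold. Its level was 50.5, 48.1 and 48.6 CPM in the parental and 37.0, 37.6 and 35.5 CPM in the resistant libraries, without overlap (log2 fold change -0.42 ± 0.05 SE, edgeR adjusted p = 3.6e-05). BIRC6, a very large ubiquitin ligase that acts on caspases and on SMAC, fell 1.22-fold from 159 ± 3.67 CPM to 130 ± 10.3 CPM (SD, n = 3; edgeR adjusted p = 0.0011), a call lost on FPKM (limma adjusted p = 0.12). XIAP, a direct inhibitor of caspases, read 68.6, 51.9 and 66.2 CPM against 68.5, 60.0 and 71.1 CPM. Replicate 2 was the lowest library in both groups, and the XIAP interval of -0.16 to 0.35 on the log2 scale was among the widest of the 34 genes (edgeR adjusted p = 0.48). BIRC7, the gene of livin, had 3, 8 and 3 counts in the parental and 4, 8 and 5 in the resistant libraries and was not tested.

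On the scale of FPKM, BIRC2 was the most abundant inhibitor in both groups, at 24.1 to 24.8 FPKM and 30.8 to 34.7 FPKM. In the parental libraries BIRC3 lay between 2.97 and 3.13 FPKM, well under XIAP at 11.8 to 13.7 FPKM. In the resistant libraries BIRC3 lay between 9.35 and 11.3 FPKM, still under XIAP at 12.4 to 13.4 FPKM. CFLAR lay at 16.4 to 18.0 FPKM, level with BIRC6 at 17.4 to 18.3 FPKM, in the parental libraries. In the resistant libraries CFLAR lay at 11.3 to 12.0 FPKM, below BIRC6 at 15.1 to 17.2 FPKM and below XIAP. BIRC3 and CFLAR, both described as NF-kB targets in other settings, went in opposite directions, and a part of NF-kB in either shift was not tested.

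Among the caspases 3 of 6 rose, 2 of them by at least 1.5-fold, and none fell. Over all tested genes 27.3% were called higher, 11.7% were higher by at least 1.5-fold and 26.5% were called lower. CASP4, an inflammatory caspase that senses cytosolic lipopolysaccharide and cleaves gasdermin D, stood at 9.58, 12.5 and 10.8 CPM in the parental and 25.7, 27.7 and 27.1 CPM in the resistant libraries. Every resistant library lay far above the parental mean of 10.9 CPM, and CASP4 rose 2.44-fold (log2 fold change 1.29 ± 0.09 SE, edgeR adjusted p = 1.9e-07). Its relatives CASP1 and CASP5 had at most 2 counts in any library. CASP10, an initiator caspase of death receptors, rose 1.64-fold from a low level of 2.63, 3.09 and 2.90 CPM to 4.94, 4.38 and 4.90 CPM (log2 fold change 0.72 ± 0.13 SE, edgeR adjusted p = 6.4e-04). These CASP10 values rested on 57 to 128 counts per library, and the groups did not overlap.

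CASP2, an initiator activated by the PIDDosome after DNA damage and centrosome gain, rose 1.13-fold from 103 ± 3.93 CPM to 117 ± 2.54 CPM (SD, n = 3; edgeR adjusted p = 0.0069). Without parental replicate 1 the CASP2 adjusted p was 0.053. CASP8, the main initiator of the receptor route, had 40.6 ± 1.87 CPM and 37.8 ± 1.09 CPM (SD, n = 3), with a log2 fold change of -0.10 (95% interval -0.22 to 0.02, edgeR adjusted p = 0.15). Without parental replicate 2 it was -0.14, with an edgeR adjusted p of 0.034. CASP9 of the apoptosome and the executioner CASP6 did not pass, with intervals of -0.27 to 0.12 and -0.24 to 0.07 on the log2 scale. On FPKM the CASP9 groups did not overlap, at 7.55 to 7.62 in the parental and 5.66 to 7.15 in the resistant libraries. CASP9 passed in none of the 16 alternatives, over which its log2 fold change reached -0.28. CFLAR, CASP10 and CASP8 lie side by side in one cluster in the human genome, and over this cluster CFLAR fell, CASP10 rose and CASP8 did not pass the threshold.

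The caspases changed their order of levels per length through CASP4. In the parental libraries CASP2 (29.1 to 31.9 FPKM) led CASP8 (25.2 to 27.7 FPKM) and CASP6 (17.1 to 20.5 FPKM), with CASP4 at 9.82 to 12.0 FPKM. In the resistant libraries CASP4 at 27.4 to 28.4 FPKM lay above CASP8 at 21.6 to 25.1 FPKM and below CASP2 at 37.2 to 40.3 FPKM. CASP4 made up 10.3% to 12.2% of the summed FPKM of the 6 caspases in the parental and 23.1% to 24.3% in the resistant libraries. CASP10 stayed the scarcest caspase of the list, at 0.80 to 1.65 FPKM over the 6 libraries.

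**Figure D4:**
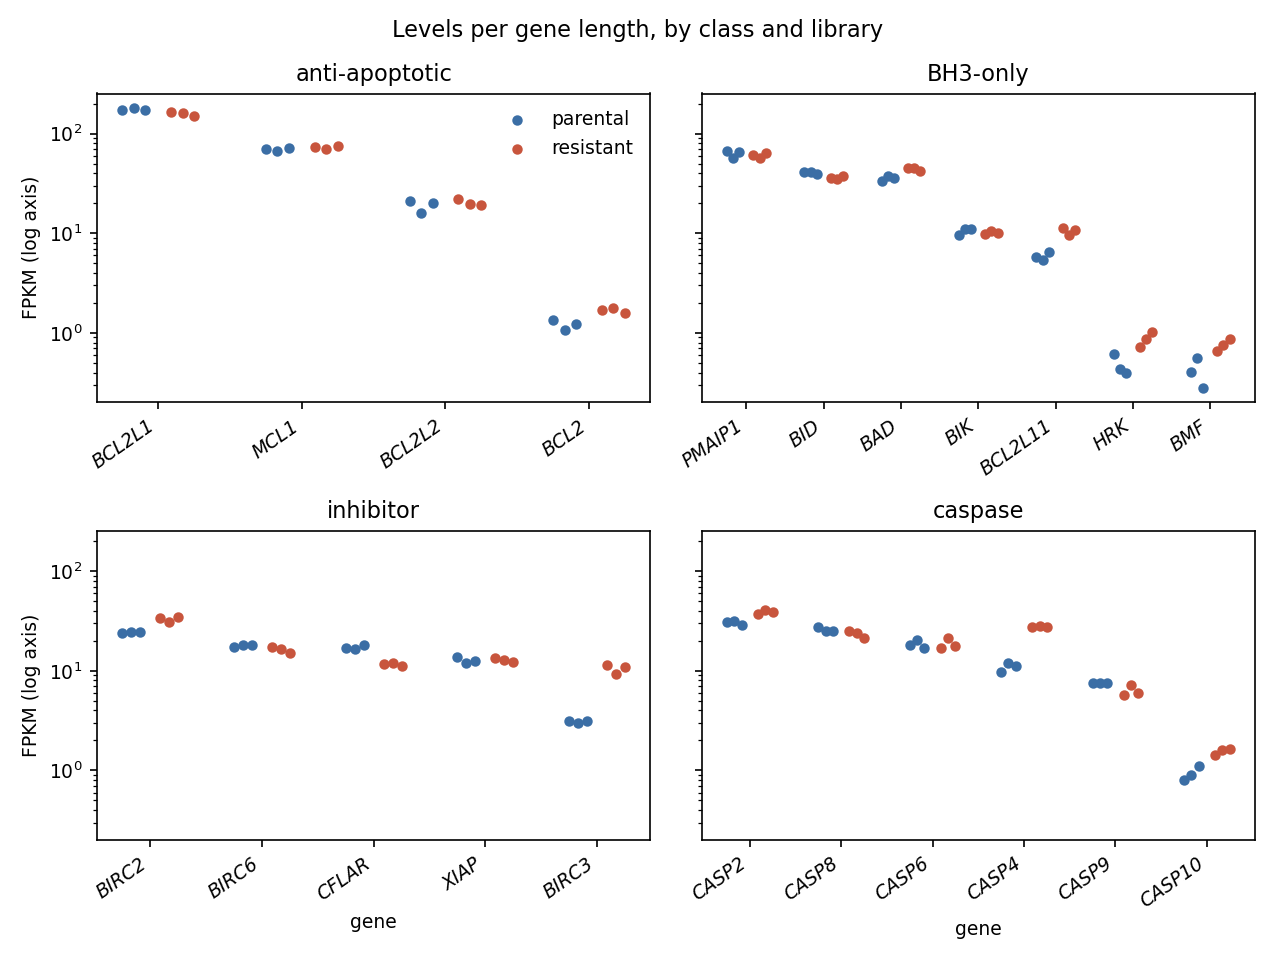
FPKM (log axis) per library for 4 classes of apoptosis genes, ordered by parental mean, with BCL2A1 and BIRC7 left out because their parental mean was under 0.3 FPKM. BCL2L1 and MCL1 lead the anti-apoptotic genes in both groups, and BIRC3 and CASP4 show the widest separation of resistant from parental points.

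Of the genes of mitochondrial release and the apoptosome, APAF1 rose and the transcripts of 4 of the 5 released proteins fell. Over all tested genes 27.3% were called higher and 26.5% lower. With library sizes alone the 6 genes of this class gave 2 higher and 2 lower. APAF1, the scaffold that cytochrome c activates and a known target of p53 and E2F factors, stood at 32.6, 30.9 and 29.4 CPM in the parental and 61.4, 61.0 and 62.5 CPM in the resistant libraries. The resistant libraries were tightly grouped and did not overlap the parental ones, and the rise was 1.99-fold (log2 fold change 0.99 ± 0.05 SE, edgeR adjusted p = 3.3e-08). CYCS, the gene of cytochrome c itself, fell 1.18-fold from 364 ± 32.4 CPM to 308 ± 21.6 CPM (SD, n = 3; edgeR adjusted p = 0.015). The CYCS adjusted p was 0.058 without resistant replicate 2 and 0.13 with library sizes alone. AIFM1, the gene of a mitochondrial flavoprotein that can carry death signals to the nucleus, fell 1.24-fold from 84.6 ± 3.64 CPM to 68.3 ± 3.10 CPM (SD, n = 3; edgeR adjusted p = 4.4e-04).

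HTRA2, a mitochondrial protease that removes inhibitor proteins once released, fell 1.21-fold from 29.2 ± 1.10 CPM to 24.1 ± 1.01 CPM (SD, n = 3; edgeR adjusted p = 0.0018). ENDOG, a mitochondrial nuclease, fell 1.26-fold, but its groups overlapped and its adjusted p of 0.027 became 0.061, 0.067, 0.074 and 0.11 without parental replicate 2, parental replicate 3, resistant replicate 2 and resistant replicate 3, 0.097 with library sizes alone and 0.12 with limma on FPKM. DIABLO, the gene of SMAC, which displaces caspases from XIAP, had 46.4 ± 1.77 CPM and 49.9 ± 2.16 CPM (SD, n = 3; edgeR adjusted p = 0.13) on its main row. The further DIABLO row held at most 1 count per library. Of the receptor adaptors, RIPK1, a kinase that can switch from survival to death signalling, fell 1.17-fold from 45.2 ± 2.37 CPM to 38.7 ± 1.203 CPM (SD, n = 3; edgeR adjusted p = 0.0055), and FADD did not pass the threshold (95% interval -0.03 to 0.25 on the log2 scale). With library sizes alone DIABLO and FADD were called higher (adjusted p = 0.0093 and 0.019). The RIPK1 call was lost with library sizes alone (adjusted p = 0.063) and on FPKM.

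Another 62 genes of the pathway in 6 lists were read beside the 36. Of these 51 were tested, and 5 without a row of that symbol were not analysed here. Among those tested 6 rose, 26 fell and 19 missed the threshold. Over all tested genes 27.3% were called higher and 26.5% lower, which is the background for each list below. With library sizes alone in place of TMM factors the same 51 genes gave 11 higher and 17 lower, and among all tested genes the share of calls that were higher moved from 50.8% to 65.3%. The balance of small rises and falls therefore depends on the scaling. Only 2 of the 51 rose and 3 fell by at least 1.5-fold, beside 11.7% higher and 6.74% lower of all tested genes.

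Among other BCL2 family and BH3 proteins 4 of 8 tested rose and 2 fell, with the same counts under each scaling. BNIP3L, a mitochondrial receptor for mitophagy, rose 1.58-fold from 56.1 ± 4.05 CPM to 88.3 ± 6.41 CPM (SD, n = 3; edgeR adjusted p = 7.8e-06). MOAP1, which binds BAX, rose 1.47-fold and BNIP1 fell by 0.47 on the log2 scale. BAX itself, named here after its value was seen, rose 1.201-fold from 43.3 ± 0.199 CPM to 52.0 ± 0.595 CPM (SD, n = 3; edgeR adjusted p = 6.1e-04). Of 2 tested other caspases and BIR proteins BIRC5, the gene of survivin, fell 1.32-fold and NAIP did not pass the threshold, though library sizes alone called NAIP higher.

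In the death receptor complex 6 of 13 tested fell and 1 rose. RNF31, the catalytic subunit of the linear ubiquitin ligase, fell 1.52-fold from 58.2 ± 0.983 CPM to 38.2 ± 1.04 CPM (SD, n = 3; edgeR adjusted p = 1.2e-06). MLKL, the pore-forming effector of necroptosis, fell 1.81-fold from 13.97 ± 0.656 CPM to 7.69 ± 0.659 CPM (SD, n = 3; edgeR adjusted p = 7.0e-06), and FAF1 fell 1.46-fold. The gene that rose was CYLD, a deubiquitinase that trims the same linear chains, by 1.48-fold; it was named after its value was seen. Among execution genes GSDME, a gasdermin that forms a membrane pore once cleaved, rose 1.87-fold from 10.7 ± 0.243 CPM to 19.97 ± 0.909 CPM (SD, n = 3; edgeR adjusted p = 4.8e-07), while 5 of 8 tested fell, among them ROCK1 and DFFB, and with library sizes alone 1 fell.

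Mitochondrial membrane and channel genes had 6 of 10 lower and none higher, or 4 lower and 2 higher with library sizes alone. PPIF, the gene of cyclophilin D of the permeability transition pore, fell 1.45-fold, VDAC1, an outer membrane channel, fell 1.30-fold and the adenine nucleotide carrier gene SLC25A6 fell by 0.57 on the log2 scale. Among genes of BCL2 family turnover and other brakes 6 of 10 fell and none rose, or 3 fell and 1 rose with library sizes alone. AVEN, which binds BCL-XL and APAF1, fell 1.96-fold from 8.70 ± 1.09 CPM to 4.44 ± 0.704 CPM (SD, n = 3; edgeR adjusted p = 9.3e-05), and FAIM and HUWE1 fell by 0.46 and 0.26 on the log2 scale.

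**Figure D5:**
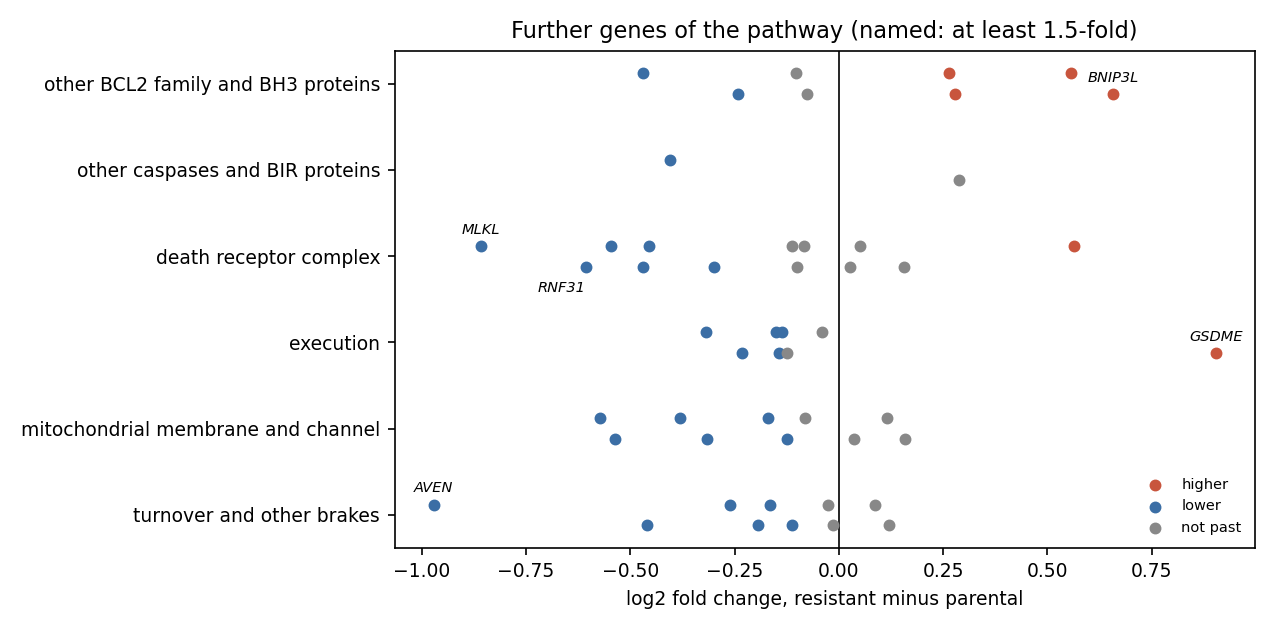
The log2 fold change (resistant minus parental) of the 51 tested further genes by list, coloured by edgeR call at an adjusted p under 0.05, with names on the 5 genes past 1.5-fold. GSDME and BNIP3L lie to the right and AVEN, MLKL and RNF31 to the left.

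The replicate spread of the 34 tested apoptosis genes was small beside the larger rises. The coefficient of variation over 3 libraries had a median of 5.16% in the parental and 4.31% in the resistant group, and the widest were XIAP at 14.5% in the parental and BMF at 16.6% in the resistant group. Parental replicate 2 was the highest parental library in 17 and the lowest in 12 of the 34 genes. Parental replicate 1 was highest in 10 and lowest in 16, and parental replicate 3 was highest in 7 and lowest in 6. The 7 rises of at least 1.5-fold held that size and their call when any 1 library was left out, with the smallest of their log2 fold changes then 0.65 (CASP10).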

How the data were processed

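Sequencing libraries were built from the cells' total RNA with SMARTER mRNA-Seq reagents (the labels' protocols). Sample titles gave the groups and replicate numbers, and sample descriptions matched the table columns. Read counts per gene, whole numbers without normalization, were deposited by the authors for each library. Aligner, counter, annotation and strandedness are not given in the sources used, so reads of overlapping or antisense genes cannot be told apart. The submitters' processing notes name GRCm38 and mm10, mouse builds, and the labels name mouse as the organism, whereas 30616 of 31456 rows of the deposited tables carry human Ensembl identifiers. The identifiers and symbols were used as deposited, and no mouse annotation, sequence or coordinate was used. The second deposited table names no unit. Its values were taken as FPKM computed by the authors, an inference: within a gene they broadly follow CPM, but the ratio of FPKM to CPM by library size differed between libraries by a median factor of 1.12 over 11470 genes with at least 100 counts in every library, and all 465 rows with no count had an FPKM above 0 in some library, so the counts alone did not give rise to them.

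Genes were tested with edgeR 4.0.16 in R 4.3.3 (TMM, filterByExpr, robust glmQLFit, glmQLFTest, two-sided) on the 6 libraries, without a replicate block, and Benjamini-Hochberg adjusted over 16605 tested genes with a threshold of 0.05. A second call asked for a fold of at least 1.5. CPM are TMM-normalised, SD are over 3 libraries, the SE is the absolute log2 fold change over the square root of the F statistic, and 95% intervals use the fit's degrees of freedom. An exact permutation test of 3 against 3 cannot go below 0.10 and was not used. The script was tested on simulated data. Alternatives used RLE size factors, library sizes alone, other filters, DESeq2 1.42.0, limma 3.58.1 on log2(FPKM + 1) and log2(FPKM + 0.1), a replicate block and leaving out each library. All 36 genes are accounted for by class; library values are given for those past 1.5-fold, the anti-apoptotic genes, the effectors and those not tested, and up to 3 genes per further list were named by smallest adjusted p. CASP1, CASP5, BAX and CYLD fall outside that rule. Some genes of the further lists are not reported here. The genes and lists were chosen with earlier results of these data known. Every pair of replicates differed by more than sampling noise.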

Additional observations from a re-analysis of the deposited data

How the results depend on the processing

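All 16 alternatives kept the direction of every gene called in the edgeR fit, and BIRC3, CASP4, APAF1 and BCL2L11 passed the threshold in each of them. Leaving out 1 library gave 10 to 12 apoptosis genes higher and 8 to 11 lower, 7 higher and 0 lower by at least 1.5-fold, and 7666 to 9209 tested genes called. With library sizes alone 14 were higher, BAK1, DIABLO and FADD among them, and 5 lower. On FPKM with a pseudocount of 1 the counts were 6 lower and 4 higher by at least 1.5-fold, with 0.1 they were 6 lower and 5 past 1.5-fold, and with no filter 7 were higher, 5 lower and 4 past 1.5-fold among 5493 tested genes called. BMF, HRK and CASP10 had at most 1.65 FPKM and log2 fold changes of 0.32, 0.34 and 0.40 with a pseudocount of 1, and of 0.77, 0.75 and 0.69 with 0.1; on FPKM the adjusted p of BMF was 0.11 and 0.12, and that of HRK 0.088 and 0.093, with pseudocounts of 1 and 0.1, and that of CASP10 was 0.059 with no filter. The other losses of a call were among changes under 1.5-fold, and BID was called lower on FPKM. No TMM factors were applied in the fits on FPKM. With a pseudocount of 1, 58.2% of all calls there were higher, against 50.8% in the edgeR fit with TMM. The cause of these differences was not tested.

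Signs turned only in genes that did not pass. BCL2L13 was -0.0084 with DESeq2, -0.0085 with RLE factors and -0.018 with no filter on counts. BCL2L2, BID, CASP6 and CASP9 were 0.074, 0.022, 0.012 and 0.022 with library sizes alone. On FPKM BCL2L2 was 0.093 and 0.097 and CASP6 0.0052 and 0.0053 with pseudocounts of 1 and 0.1. Leaving out 1 library gave -0.032 to 0.039 for BCL2L13, -0.087 to 0.015 for BCL2L2, -0.011 to 0.049 for MCL1 and -0.022 to 0.17 for XIAP.

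The replicate numbers were not taken as pairs, since the correlations of same-numbered deviations were 0.074, 0.14 and 0.010 for numbers 1, 2 and 3, and not every library correlated best with its own number. With the replicate block 12 apoptosis genes were higher and 11 lower (BAK1 and PMAIP1 gained), 7 by at least 1.5-fold, with 9973 tested genes called. BCL2A1, with at most 1 count per library, and BIRC7, with 3 to 8, failed the filter on low counts at this depth. No fold change is given for them, and the reason for their low counts was not tested.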

Other observations

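Replicate 2 was the lowest library of both groups in 8 of the 34 tested apoptosis genes, namely MCL1, PMAIP1, BCL2L11, XIAP, BIRC2, BIRC3, CASP8 and CYCS. It was the highest of both groups in another 8, among them BAK1, BAD and BIRC6. Replicate 1 held those places in 6 and 4 of the genes, and replicate 3 in 3 and 4. Replicate 2 was thus lowest in both groups in 23.5% and highest in both in 23.5% of the apoptosis genes, beside 21.1% and 20.6% of all tested genes. The shares for replicate 1 were 17.6% and 11.8%, beside 8.83% and 8.55%, and those for replicate 3 were 8.82% and 11.8%, beside 14.1% and 13.3%.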
